A study of Mus musculus with 6 samples.

Results

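Endothelial genes and the vascular growth factors of the VEGF family were followed in brown adipose tissue, a fat depot specialised in heat production. The 10 genes were selected by symbol, with no threshold on a measured value: the endothelial genes Pecam1, Cdh5, Kdr, Flt1, Tek, Tie1, Vwf and Emcn, and the ligands Vegfa and Vegfb, which adipocytes make. All 10 were found among the 24062 gene symbols of the count table, and all 10 were among the 13300 genes with enough reads to test. The series concerns FAM195A, a stress granule protein studied for its part in heat production in the cold, and compares male C57BL/6 mice aged 12 weeks that carry 1 or 2 disrupted copies of its gene. The tissue came from 3 mice labelled FAM195A heterozygous and 3 mice labelled FAM195A Knock out, so every animal carried at least 1 disrupted copy and no wild-type animal was included. The design of the allele, the cells in which it is active and the housing temperature were not given in the sources used here.

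Blood vessels are lined by endothelial cells, which are dense in brown adipose tissue because heat production needs oxygen and fuel and the heat is carried away in blood. VEGF-A, released by adipocytes and muscle fibres among other cells, drives vessel growth by binding the receptor tyrosine kinase VEGFR-2 (Kdr), while VEGFR-1 (Flt1) binds VEGF-A tightly with weak kinase activity and also binds VEGF-B. The receptor TIE2 (Tek) binds angiopoietins and, with its relative TIE1 (Tie1), steadies mature vessels. Pecam1 and Cdh5 encode adhesion proteins of the contacts between endothelial cells, Emcn a sialomucin of their surface, and Vwf the clotting protein von Willebrand factor.

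None of the 10 genes differed between the labelled genotypes beyond the spread between mice. All 8 endothelial genes had fitted log2 fold changes (knockout over heterozygous) between 0.01 and 0.14, Vegfa was at -0.11 and Vegfb at 0.10. By edgeR's quasi-likelihood test 0 of 10 passed a Benjamini-Hochberg adjusted p of 0.05, at which 0.586% of the 13300 tested genes were called (0.0526% rose and 0.534% fell), and 0 of 10 had an unadjusted p under 0.05, against 12.1% of the tested genes. DESeq2 and limma-voom also called 0 of 10. In none of the 10 did the 3 knockout-labelled libraries lie wholly on one side of the 3 others, which 18.0% of the tested genes did (8.11% with the knockout-labelled libraries higher, 9.89% with them lower). The 95% intervals of the fold changes were narrowest for Pecam1, at 0.890 to 1.27, and widest for Vwf, at 0.681 to 1.51, with no adjustment for the number of genes. The lowest bound of the 10 was 0.670 (Vegfa) and the highest 1.52 (Vegfb).

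Reads counted in genes ran from 18781401 to 20471963 in the heterozygous-labelled libraries and from 22418031 to 25084627 in the knockout-labelled ones. That was 43.9% to 48.4% and 51.0% to 58.3% of the column totals. Reads without a unique alignment made up 21.8% to 23.8% and 17.6% to 19.8%. These ranges did not overlap between the groups, and the cause was not tested. The targeted gene, Fam195a, had 69.0, 70.5 and 103 CPM (normalised read counts, scaled to a common library size) in heterozygous 1 to 3, against 50.5, 82.0 and 81.3 CPM in knockout 1 to 3. Its log2 fold change was -0.18 (95% interval -0.75 to 0.38, edgeR adjusted p = 0.896). Since this transcript does not set the groups apart, the groups are named below as labelled. The library titles begin with RF in 4 libraries (replicates 1 and 2 of each group) and with RE in 2 (replicate 3 of each group), and the labels do not say what the prefix stands for. The first principal component put the heterozygous-labelled libraries at -50.7 to -6.15 and the knockout-labelled ones at 22.0 to 34.2. The second put the RE libraries at -19.4 and -54.1 and the RF libraries at 12.9 to 27.5. The summed level of 28 skeletal muscle markers was 12169, 28513 and 36908 CPM in heterozygous 1 to 3 but 7686, 4530 and 4348 CPM in knockout 1 to 3, the widest spread of the marker lists examined. In whole tissue, fewer cells of a type and less RNA per cell cannot be told apart.

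The adhesion genes of endothelial contacts were not called, with group means close together. Pecam1 (ENSMUSG00000020717, chromosome 11 from 106654217 to 106750628, minus strand, GRCm38) encodes CD31, which is also present on platelets and leukocytes. Its levels were 109, 116 and 111 CPM in heterozygous 1 to 3, against 124, 118 and 115 CPM in knockout 1 to 3. It had the narrowest spread of the 10 genes, with a highest library 1.13 times the lowest, and the groups overlapped at 115 to 116 CPM. The log2 fold change was 0.09 (SE 0.110, adjusted p = 0.889 by edgeR). Cdh5 (ENSMUSG00000031871, chromosome 8 from 104101625 to 104144511, plus strand), which encodes VE-cadherin, the cadherin that joins endothelial cells to each other, was at 205, 247 and 175 CPM in the heterozygous-labelled libraries and at 234, 195 and 200 CPM in the knockout-labelled ones. The heterozygous-labelled libraries held both the highest and the lowest Cdh5 value. Its group means were 209 ± 36.4 and 210 ± 21.3 CPM (SD, n = 3 each), with a log2 fold change of 0.01 (95% interval -0.38 to 0.39).

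The VEGF receptors showed more spread than Pecam1. Kdr (ENSMUSG00000062960, chromosome 5 from 75932827 to 75978458, minus strand), the main signalling receptor of VEGF-A, stood at 187, 182 and 125 CPM in the heterozygous-labelled libraries and at 147, 179 and 181 CPM in the knockout-labelled ones. The lowest value was that of heterozygous 3 and the highest that of heterozygous 1. The log2 fold change was 0.04 (SE 0.186, 95% interval -0.40 to 0.47). Flt1 (ENSMUSG00000029648, chromosome 5 from 147561604 to 147726011, minus strand), which encodes VEGFR-1 and a soluble form that traps VEGF-A, stood at 139, 134 and 107 CPM and at 134, 105 and 173 CPM. Knockout 3 was the highest and knockout 2 the lowest of the 6. The log2 fold change of Flt1 was 0.11 (SE 0.205, 95% interval -0.36 to 0.59). The ratio of Flt1 to Kdr reads within a library was 0.779 ± 0.0632 in the heterozygous-labelled and 0.816 ± 0.199 in the knockout-labelled libraries (SD, n = 3 each). A gene count does not separate soluble from membrane-bound Flt1.

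The angiopoietin receptor genes likewise overlapped between the groups. Tek (ENSMUSG00000006386, chromosome 4 from 94739289 to 94874976, plus strand) stood at 41.3, 43.5 and 33.5 CPM in the heterozygous-labelled libraries and at 46.7, 46.0 and 37.9 CPM in the knockout-labelled ones. Its log2 fold change of 0.14 (SE 0.153, adjusted p = 0.856 by edgeR) was the largest of the 10 genes, and its p ranked number 5900 of the 13300 tested. Tie1 (ENSMUSG00000033191, chromosome 4 from 118471191 to 118490061, minus strand), which has no well-established ligand of its own, stood at 65.3, 66.1 and 58.0 CPM and at 60.4, 73.9 and 62.1 CPM. Knockout 2 was the highest and heterozygous 3 the lowest, and the log2 fold change was 0.05 (95% interval -0.26 to 0.36). Tie1 reads came to 1.61 ± 0.109 times those of Tek in the heterozygous-labelled libraries and to 1.51 ± 0.190 times where the label was knockout (SD, n = 3 each).

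Emcn and Vwf were likewise not called between genotypes. The estimate between title prefixes was larger in size than that between genotypes in 8 of the 10 genes, the exceptions being Pecam1 and Flt1. Emcn (ENSMUSG00000054690, chromosome 3 from 137341067 to 137432185, plus strand), found mainly on capillary and venous endothelium, stood at 26.6, 25.1 and 30.7 CPM in the heterozygous-labelled libraries and at 21.3, 28.1 and 35.1 CPM in the knockout-labelled ones. The RE library was the highest of each group, and the log2 fold change between genotypes was 0.04 (SE 0.200). Vwf (ENSMUSG00000001930, chromosome 6 from 125546774 to 125686679, plus strand), whose product is stored in granules of endothelial cells and platelets, stood at 15.3, 14.7 and 23.3 CPM and at 16.0, 15.1 and 22.8 CPM. Its genotype difference was 0.02 on the log2 scale (SE 0.245), while the 2 RE libraries, at 22.8 and 23.3 CPM, lay above the 4 RF libraries, at 14.7 to 16.0 CPM.

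The prefix was then put into the fit beside genotype, a step chosen after the Vwf values were seen. Vwf was higher in the RE libraries by 0.59 on the log2 scale (SE 0.121, edgeR adjusted p = 0.0289), the only one of the 10 genes called, against 9.35% of the 13300 tested genes (5.02% higher and 4.32% lower), so the share of members called is near that background. The difference stayed between 0.55 and 0.64 when any 1 library was left out, but no longer passed in any of those 6 fits (adjusted p = 0.0519 to 0.169), nor with library size alone as the scaling (adjusted p = 0.0501). Vegfb (0.43, adjusted p = 0.106), Emcn (0.38, adjusted p = 0.142) and Tek (-0.32, adjusted p = 0.0947) came next by edgeR and did not pass. Both RE libraries lay above all 4 RF libraries in 3 of the 10 genes (Vwf, Emcn and Vegfb), against 16.3% of tested genes, and below them in 1 (Tek), against 17.8%. Of the platelet and megakaryocyte markers, a second source of Vwf, 0 of 3 tested passed between the prefixes by edgeR (median log2 difference 0.55). Their summed level was 9.51 and 10.1 CPM in the RE libraries and 5.29 to 7.75 CPM in the RF libraries, over 8 markers of which 5 had reads in every library and none was at 0 throughout. Some other cell type markers also had higher medians in RE: 0.75 for lymphatic (1 of 5 called) and 0.67 for leukocyte markers (1 of 12 called). Red blood cell markers were at 0.90 (0 of 2 called) and fibroblast markers at 0.56 (4 of 8 called). Medians were smaller for skeletal muscle (0.28, 0 of 28 called), Schwann cell (0.23, 1 of 6 called) and brown adipocyte markers (0.16, 1 of 10 called, lower). Pericyte and smooth muscle markers were at -0.04 (0 of 11 called) and the 8 endothelial genes at -0.10. The part of these cell types in the Vwf difference was not tested.

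**Figure D1:**
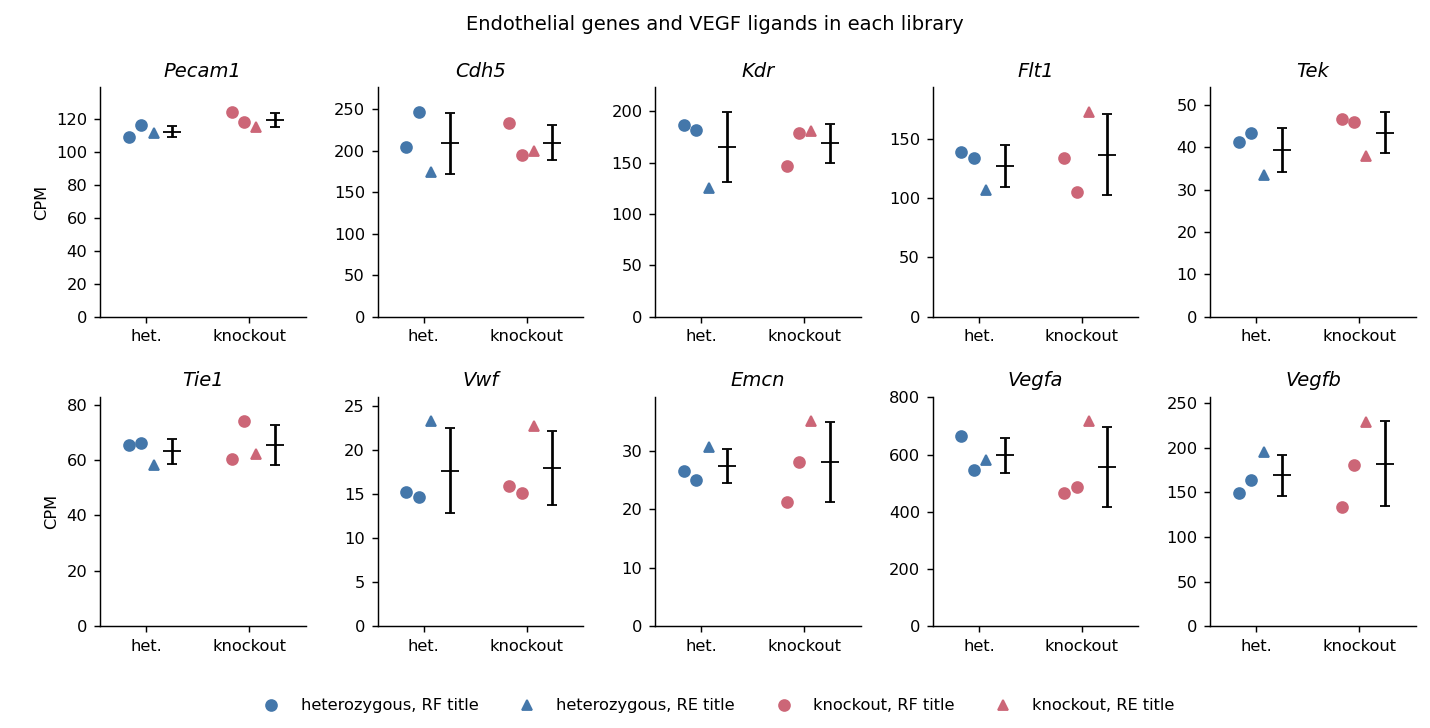
Scaled read counts (CPM, vertical axes from 0) of the 10 genes in each of the 6 libraries, with heterozygous-labelled libraries in blue, knockout-labelled ones in red, circles for RF titles and triangles for RE titles; the black bars are the group mean and SD (n = 3). The groups overlap in every panel, and in the Vwf panel the 2 triangles (22.8 and 23.3 CPM) stand above all 4 circles (14.7 to 16.0 CPM).

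The ligands of the VEGF receptors were not called between the genotypes either. Vegfa (ENSMUSG00000023951, chromosome 17 from 46016993 to 46032369, minus strand), the main driver of vessel growth, had 666, 547 and 581 CPM in heterozygous 1 to 3, against 465, 487 and 716 CPM in knockout 1 to 3. Knockout 1 and 2 were the lowest of the 6 libraries and knockout 3 the highest. The group means were 598 ± 61.4 and 556 ± 139 CPM (SD, n = 3 each), with a log2 fold change of -0.11 (SE 0.202, 95% interval -0.58 to 0.37, adjusted p = 0.935 by edgeR). Without knockout 3 the log2 fold change of Vegfa was -0.34 (edgeR adjusted p = 0.357), the smallest adjusted p that any alternative gave for a member. Vegfb (ENSMUSG00000024962, chromosome 19 from 6982473 to 6987651, minus strand), a ligand of VEGFR-1 linked to fatty acid uptake and heart muscle more than to vessel growth, stood at 149, 164 and 195 CPM and at 134, 181 and 229 CPM. Knockout 1 was the lowest and knockout 3 the highest, 1.71 times as high, the widest range of the 10 genes. The log2 fold change of Vegfb was 0.10 (SE 0.213), and it was -0.11 without knockout 3 and 0.28 without knockout 1. Vegfa reads exceeded Vegfb reads in every library, by 2.69 to 4.47 times.

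Within the title prefixes the estimates pointed different ways for some genes. Over the RF libraries alone (2 against 2) the log2 ratio was -0.18 for Kdr, -0.19 for Flt1 and -0.35 for Vegfa, while in the RE pair (1 against 1, no test) it was 0.53, 0.69 and 0.30. Pecam1, at 0.10 and 0.06, and Tek, at 0.13 and 0.18, kept 1 sign. A genotype by prefix interaction was fitted after these values were seen, with 2 residual degrees of freedom. Each RE arm is 1 library, so the spread comes from the RF libraries and the RE libraries are assumed to vary like them. By edgeR it called none of the 10 genes, with an adjusted p of 0.650 for Flt1, 0.653 for Kdr and 0.681 for Vegfa. Of the 13300 genes it called 0, and 955 had an unadjusted p under 0.05, Flt1 and Kdr among them; DESeq2 and limma-voom were not run on this term. A fit of this size does not show that the genotype difference is alike in both prefixes. With the mean log2 CPM of the muscle markers as a covariate, the log2 fold change of Kdr was -0.56 (95% interval -1.40 to 0.28) and that of Vegfa -0.60 (95% interval -1.59 to 0.39), and again none of the 10 was called. That score separates the 2 groups completely, so the intervals in that fit were wider than without it.

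**Figure D2:**
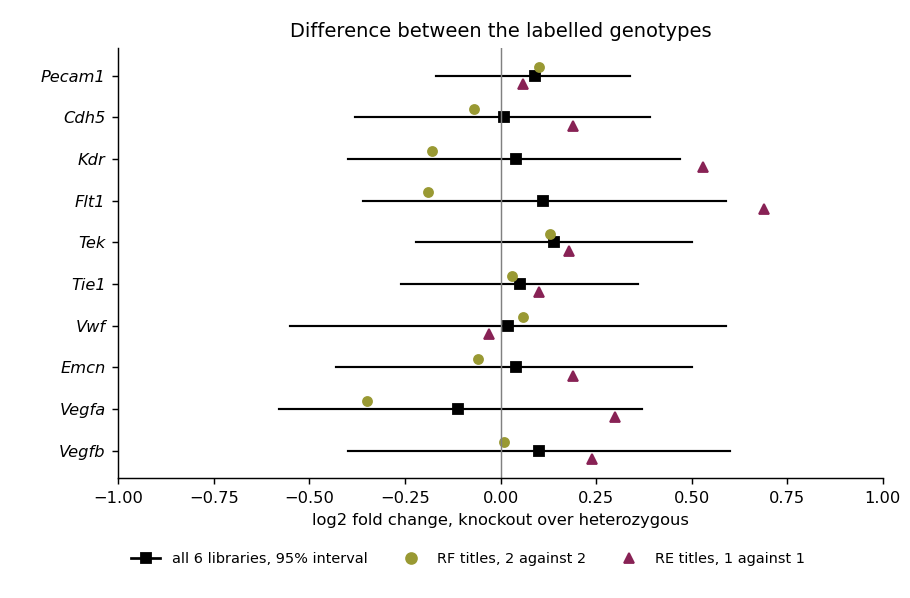
Log2 fold change of each gene, knockout-labelled over heterozygous-labelled (horizontal axis), from all 6 libraries with its 95% interval (black squares and lines), from the RF libraries (circles, 2 against 2) and from the RE pair (triangles, 1 against 1). Every interval spans 0; the circle and triangle of Flt1 lie at -0.19 and 0.69 and those of Vegfa at -0.35 and 0.30.

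Levels of different genes were compared as CPM per kb of merged exon length, which corrects for longer transcripts giving more reads. Vegfa was highest, with a mean of 135 CPM per kb over the 6 libraries (SD 23.1), followed by Vegfb at 109 (SD 21.3), and their ranges over libraries overlapped. Cdh5 was the most abundant endothelial gene at 49.8 CPM per kb (SD 6.31), and its range met neither that of Vegfb above nor that of the next genes below. Pecam1 and Kdr were both at 18.5 CPM per kb (SD 0.854 and 2.77), Tie1 at 13.1 (SD 1.14), Flt1 at 9.77 (SD 1.84) and Tek at 8.80 (SD 1.07), and each of these overlapped its neighbour in this order. Emcn at 5.14 CPM per kb (SD 0.878) and Vwf at 1.11 (SD 0.252) came last, with ranges apart from their neighbours. The median of the 12698 tested genes with a length was 4.19 CPM per kb, so Vwf alone among the 10 had a mean below it. Where the expressed transcript is shorter than the merged exons, this level is an underestimate. The merged exons were longest for Vwf (16064 bases) and Flt1 (13504 bases). The part of this in the last place of Vwf was not tested.

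**Figure D3:**
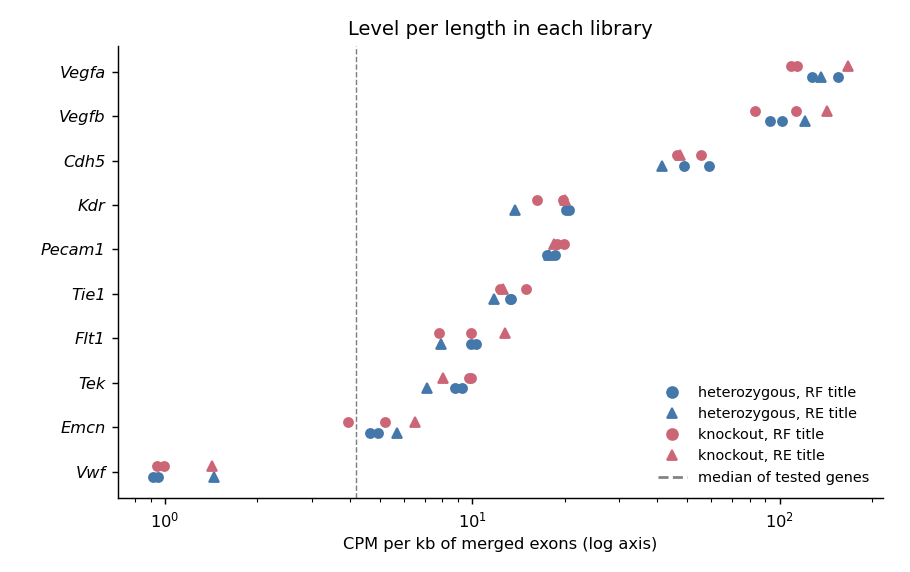
CPM per kb of merged exons (horizontal log axis) of each gene in each library, ordered by mean; colours mark the labelled genotype, circles RF and triangles RE titles, and the dashed line the median of tested genes at 4.19. Vegfa and Vegfb lie above 80 in every library and Vwf below 1.5.

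Promoter sequence was examined for motifs that the genes share. RefSeq starts on GRCm38.p6 were on hand for 7 of the 10 genes, in 8 windows since Vegfa has 2 starts (windows at 46032378 to 46032627 and, within the gene, at 46025164 to 46025413), and Pecam1, Cdh5 and Vwf had no entry. In the 250 bases before the start, searched on both strands, AGGAAG, a core that ETS transcription factors such as ERG bind in endothelial genes, was present in 3 of the 5 endothelial genes (Flt1, Tie1 and Emcn) and in neither ligand gene, against 29.5% of 32851 promoters. The core hypoxia response letters ACGTG or GCGTG were present in 5 of the 8 windows (Kdr, Flt1, Emcn, Vegfb and the inner Vegfa window, not the outer one), against 38.6% of promoters. The GATA letters AGATAA were present in the outer Vegfa window alone, against 9.99% of promoters. No match overlapped a match of another of these motifs. These are matches of letters, not sites shown to be bound. The Tie1 window, at 118489850 to 118490099, reaches far into the gene as GENCODE places it, from 118471191 to 118490061. Positions before the Tie1 start therefore hold for the RefSeq start alone. The stretches with the ETS core are shown because they carry the one endothelial motif that was found in more than 1 member, with the match and its reverse complement CTTCCT in capitals, 5′ to 3′ on the gene's strand, at chr5:147726049-147726150 (minus) for Flt1, chr4:118490053-118490078 (minus) for Tie1 and chr3:137340894-137341000 (plus) for Emcn.
Flt1: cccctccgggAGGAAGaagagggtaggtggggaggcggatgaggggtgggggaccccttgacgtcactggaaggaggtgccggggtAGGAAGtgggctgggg
Tie1: aagccactggCTTCCTccctttcctg
Emcn: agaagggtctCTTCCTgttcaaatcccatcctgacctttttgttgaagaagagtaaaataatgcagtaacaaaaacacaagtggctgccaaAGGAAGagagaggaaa

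Around the members, 97 genes in 7 lists of vessel biology were examined, of which 94 could be tested. By edgeR 0 rose and 0 fell at an adjusted p of 0.05, and DESeq2 and limma-voom also called 0. Of the 94, 8 had an unadjusted p under 0.05 (8.51%, against 12.1% of all tested genes), and in 11 the groups did not overlap (11.7%, against 18.0%). Their median log2 fold change was 0.06, beside 0.020 for all tested genes. With the title prefix as a covariate 1 of the 94 was called, Ppargc1a (log2 -0.70, edgeR adjusted p = 0.0387), against 311 of all 13300 tested genes. Over the RF libraries alone 1 of the 94 was called, Pdk1 (log2 -0.78, edgeR adjusted p = 0.0464), against 132 of 13287.

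Among 9 tested genes for other VEGF and angiopoietin ligands and their receptors the median log2 fold change was 0.00, with 0 called. Nrp1, the coreceptor neuropilin-1, stood at 287, 248 and 228 CPM in the heterozygous-labelled libraries and at 212, 210 and 159 CPM in the knockout-labelled ones. Its groups did not overlap, and its log2 fold change of -0.39 did not pass (edgeR adjusted p = 0.402). Angpt1, the ligand of TIE2 made by cells around the vessel and named here for its values, stood at 26.7, 25.4 and 44.9 CPM and at 20.1, 20.1 and 23.0 CPM, also without overlap (log2 -0.62, edgeR adjusted p = 0.338). Ptprb, the endothelial phosphatase that acts on TIE2, had a log2 fold change of 0.14 (edgeR adjusted p = 0.895).

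The 21 tested genes of endothelial surface and junctions had a median log2 fold change of 0.18, with 17 above 0 and none called. Podxl, a surface sialomucin, was at 0.03 (edgeR adjusted p = 0.982), and S1pr1, the sphingosine 1-phosphate receptor, at 0.10 (0.920). The smallest adjusted p of the list was that of Gpihbp1, which carries lipoprotein lipase to the capillary lumen: it stood at 73.8, 76.8 and 73.8 CPM in the heterozygous-labelled libraries and at 87.9, 99.5 and 94.6 CPM in the knockout-labelled ones (log2 0.33, edgeR adjusted p = 0.264). Esam was the other gene of this list whose groups did not overlap (log2 0.34, edgeR adjusted p = 0.330). Gpihbp1 and Esam were named after their values were seen.

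Endothelial transcription factors had a median of 0.05 over 14 genes and the Notch and arterial or venous genes 0.07 over 12, with none called. Ets1, of the ETS family, had a log2 fold change of 0.06 and Sox18, a factor of vessel and lymphatic development, one of 0.00 (edgeR adjusted p = 0.962 and 0.996). Notch1 was at -0.07 and its ligand Jag1 at 0.21 (edgeR adjusted p = 0.941 and 0.946). Jag1 stood at 25.9 to 33.6 CPM in the RF libraries and at 59.0 and 76.8 CPM in the RE libraries.

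Of 12 genes of the HIF pathway and the PGC-1 family, regulators of Vegfa, none was called, with 5 log2 fold changes above 0, 7 below and a median of -0.07. The list's mean log2 CPM was 6.09, 6.14 and 6.03 in heterozygous 1 to 3 and 5.97, 5.91 and 5.95 in knockout 1 to 3. These means did not overlap, but they were not tested. The list mean takes no account of the direction in which each gene acts on Vegfa. Gene by gene, the groups were apart in 2 of the 12, against 18.0% of tested genes. These were Egln1 (log2 -0.20) and Hif1an (log2 -0.33), both lower in knockout and named for their values. By edgeR 0 of the 12 had an unadjusted p under 0.05, against 12.1%. Epas1, which encodes the hypoxia-inducible factor HIF-2α, stood at 593, 614 and 549 CPM in the heterozygous-labelled libraries and at 759, 595 and 847 CPM in the knockout-labelled ones (log2 0.33, edgeR adjusted p = 0.551). Ppargc1a, a coactivator that can raise Vegfa independently of HIF, stood at 429, 494 and 87.4 CPM and at 259, 262 and 64.2 CPM (log2 -0.79, edgeR adjusted p = 0.805). Within each prefix the knockout-labelled libraries were the lower ones for Ppargc1a, and both RE libraries were below all 4 RF libraries. Of 12 hypoxia-responsive genes none was called (median -0.06): Ldha, of lactate formation, was at 0.13 and Bnip3, of mitochondrial removal, at -0.40 (edgeR adjusted p = 0.861 and 0.770). Of 14 other secreted regulators of vessel growth none was called either (median 0.09): Timp3, an inhibitor of matrix proteases that also blocks VEGFR-2, was at 0.18 and Angptl4, an inhibitor of lipoprotein lipase, at 0.15 (edgeR adjusted p = 0.935 and 0.978).

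**Figure D4:**
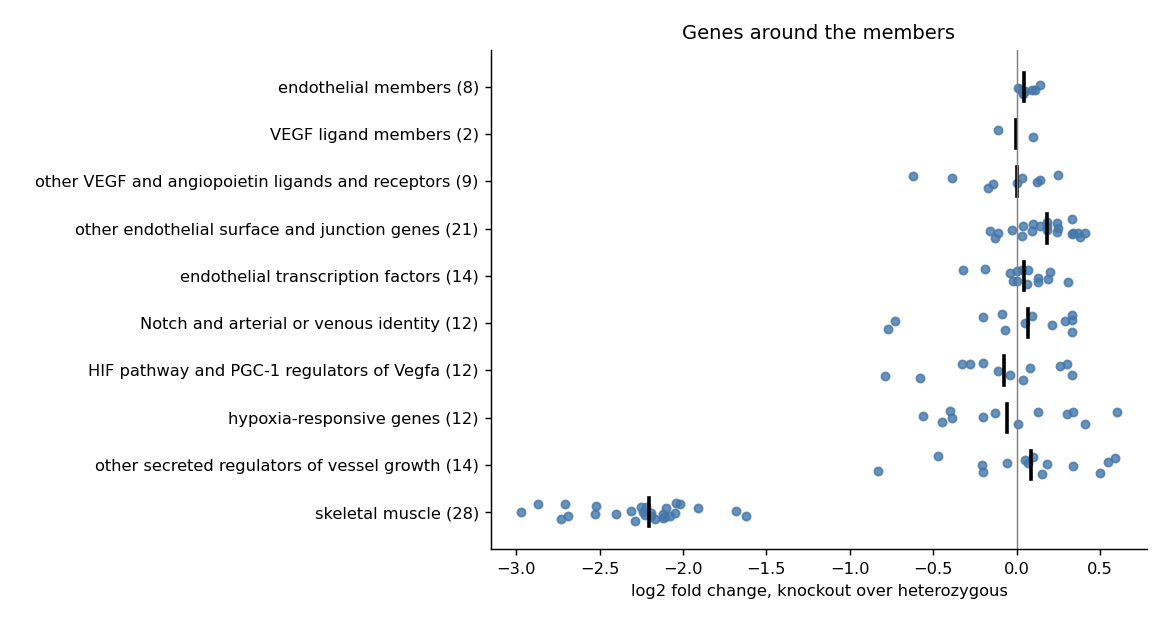
Log2 fold change, knockout-labelled over heterozygous-labelled (horizontal axis), of each tested gene in the member lists, the 7 lists of vessel biology and the skeletal muscle list, with the number of tested genes in parentheses and the median as a black bar. The medians of the vessel lists lie between -0.07 and 0.18, and that of muscle at -2.21; vertical scatter within a row only separates the points.

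The 8 endothelial genes summed to 790, 828 and 662 CPM in heterozygous 1 to 3, against 784, 760 and 827 CPM in knockout 1 to 3, a highest library 1.25 times the lowest. Pericyte and smooth muscle markers, which cover the outer side of vessels, varied by 1.21 times (455 to 550 CPM over 11 genes, median log2 fold change -0.05), with Cspg4 at 0.18 and Rgs5 at -0.05 (edgeR adjusted p = 0.663 and 0.977). Brown adipocyte markers varied by 1.28 times (21623 to 27593 CPM over 10 genes, median log2 fold change 0.07). Within that list Fabp4, a fatty acid carrier, had a log2 fold change of 0.16 and Ucp1, the uncoupling protein of brown adipocytes, one of -0.16 (edgeR adjusted p = 0.880 and 0.958), and Ucp1 was present at 1647 to 5693 CPM. Skeletal muscle markers varied by 8.49 times: Myh4 was at -2.23 and Atp2a1 at -2.29 (edgeR adjusted p = 0.0736 and 0.0754), and 0 of the 28 were called by edgeR or limma-voom and 27 by DESeq2. All 28 had an unadjusted p under 0.05 by edgeR and groups that did not overlap. Heterozygous 3, with the most muscle RNA (36908 CPM), had the lowest endothelial sum (662 CPM), while heterozygous 2, with 28513 CPM of muscle markers, and knockout 3, with 4348 CPM, had 828 and 827 CPM of the endothelial genes. The part of muscle RNA in the endothelial values was examined only through the covariate fit above.

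Of the markers of platelets, leukocytes, red blood cells, fibroblasts, Schwann cells and lymphatic vessels none was called by edgeR, with 1 lymphatic and 1 Schwann cell marker at an unadjusted p under 0.05. DESeq2 and limma-voom each called 1 of them, Prox1. Leukocyte and macrophage markers, of interest because leukocytes also carry CD31, summed to 121 to 298 CPM in the heterozygous-labelled and 178 to 313 CPM in the knockout-labelled libraries over 12 genes, with Lyz2 at 0.00 and C1qa at 0.24 (edgeR adjusted p = 0.999 and 0.891). Platelet markers were low, at 5.29 to 10.1 CPM in sum, with Pf4 at 0.30 and Itga2b at 0.36 (edgeR adjusted p = 0.825 and 0.808). Of the red blood cell markers, 4 of 6 (the globin symbols Hba-a1, Hba-a2, Hbb-bs and Hbb-bt) were at 0 in every library. Reads without a unique alignment, 17.6% to 23.8% of each column total, were assigned to no gene, so a count of 0 does not show that an RNA was absent. Alas2 was at 0.58 and Slc4a1 at 1.27 (edgeR adjusted p = 0.502 and 0.588). Fibroblast markers had a median of 0.04, with Col3a1 at 0.03 and Dcn at -0.16, and Schwann cell markers one of -0.21, with S100b at 0.41 (edgeR adjusted p = 0.974, 0.934 and 0.387). Lymphatic markers summed to 8.07 to 31.2 CPM, with Lyve1, also found on macrophages, at 0.69 and Pdpn at -0.23 (edgeR adjusted p = 0.830 and 0.928), and Ccl21a at 0 throughout. Prox1, the transcription factor of lymphatic identity, which skeletal muscle also expresses and which is named for its values, was at 0.587, 0.706 and 0.969 CPM and at 0.134, 0.0780 and 0.0461 CPM (log2 -3.05, edgeR adjusted p = 0.0581). The mean of Prox1 over the 6 libraries was 0.420 CPM, so its fold change rests on few reads. Its levels moved with the muscle markers, whose part in this was not tested.

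**Figure D5:**
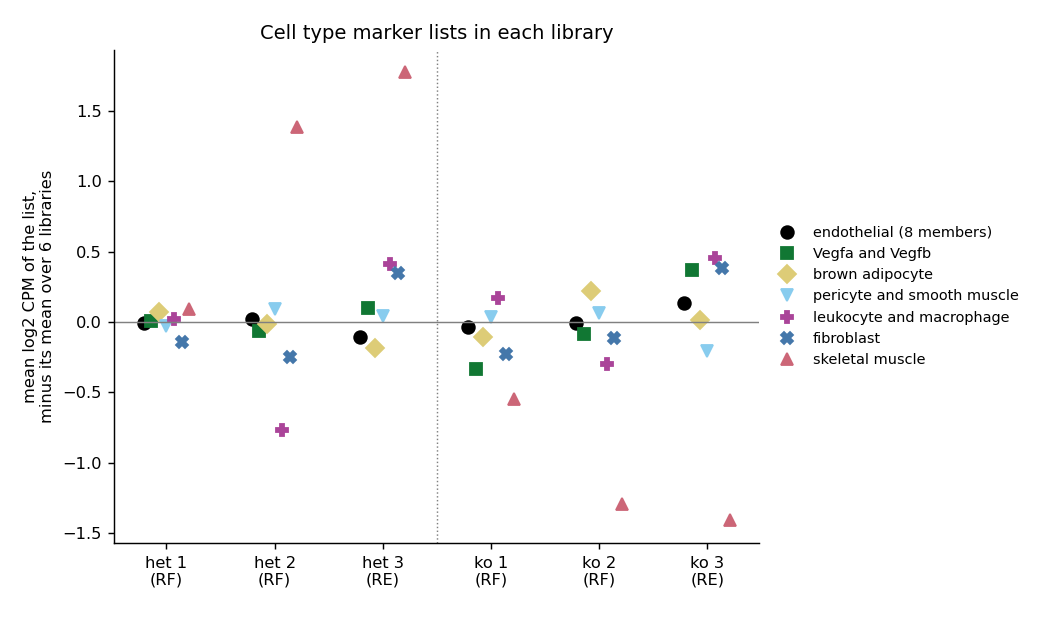
Mean log2 CPM of 7 marker lists in each library, minus the list's mean over the 6 libraries (vertical axis); library titles' prefixes are in parentheses. The endothelial list runs from 6.05 to 6.29 before centring, the skeletal muscle list from 6.67 to 9.85.

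The genes whose levels ran most like those of the members were sought among 10892 tested genes outside all lists whose average log2 CPM reached 1. Across the 6 libraries the mean log2 CPM of the 8 endothelial genes was followed closely by Tmem106c (Pearson r = 0.987), Sgce (0.983), Gstm5 (0.975) and Dock8 (0.974). Vegfa was followed by Rnf152 (0.976), Rbbp6 (0.973), the heparan sulphate proteoglycan gene Sdc4 (0.970), Map2 (0.970) and Ncl, which encodes nucleolin (0.968). Vegfb was followed by Arpc1a, of the actin-nucleating Arp2/3 complex (0.992), Zfp467 (0.989), Slc22a2 (0.987), Rdm1 (0.984) and Mtfr1l (0.983). These genes were picked for the height of r over 6 libraries that share a scaling, so r carries no test here.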

How the data were processed

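Per the labels' protocols, RNA came from snap-frozen, pulverised brown adipose tissue (3 mice per genotype). What the authors deposited is a table of read counts by gene symbol, with a column for each library. The submitters' processing notes name STAR 2.7.2b, HTSeq, Bowtie2 2.3.4.3, Trim Galore, edgeR, SAMtools 1.9 and mm10, with no role for any. Annotation, strandedness and treatment of multi-matching reads were not given in the sources used here. No member shares exon bases with another gene in GENCODE M21, though Gm29682 lies on the opposite strand within the span of Cdh5.

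Groups come from the genotype labels. Replicate numbers follow accession order and pair nothing. The labels say the mice are separate animals. The 5 closing lines that name no gene (41.7% to 56.1% of each column total) were left out. All pairs of libraries differed by more than counting noise (chi-square over its degrees of freedom 39.3 to 304).

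The comparison used edgeR 4.0.16 in R 4.3.3: filterByExpr (minimum count 10, minimum total 15), TMM scaling and a quasi-likelihood F test of genotype with robust dispersion, two-sided, with Benjamini-Hochberg adjustment over 13300 genes at 0.05, fitted on the whole table. The biological coefficient of variation was 24.7%. CPM values use TMM-scaled library sizes, and log2 ratios within a prefix had 0.5 CPM added. The fit was tested on simulated data, with a recovery criterion that was loosened after the first outcome. Exon lengths and positions are from GENCODE M21 (GRCm38), promoters from RefSeq (GRCm38.p6). A comparison of 3 against 3 by exact permutation cannot go below p = 0.1, so none is given.

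Named genes are the members, the targeted gene, the 2 most abundant genes of each list and any called ones (none was); exceptions are marked, and some genes that the rules select are not reported here. All 202 symbols of the lists were found. Members and lists were chosen with earlier results of these data known. Alternatives were RLE scaling, library size only, muscle genes left out of library sizes, no filter, leaving out each library, a floor of 1 on the mean CPM, the title prefix or a muscle score as covariate, RF libraries only, DESeq2 1.42.0, limma-voom (limma 3.58.1), no robust estimation and an adjusted p of 0.1.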

Additional observations from a re-analysis of the deposited data

How the results depend on the processing

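None of the 10 members was called, or had an unadjusted p under 0.05, under any of the 18 alternatives run. Of 170 refitted member values, rounded to 2 decimals, 29 changed sign and 141 did not, 6 of which round to 0.00. With library size only, those that changed it were Cdh5 (-0.04), Kdr (-0.01), Vwf (-0.05) and Emcn (-0.03). Over the RF libraries only, they were Cdh5 (-0.08), Kdr (-0.18), Flt1 (-0.20) and Emcn (-0.07). By limma-voom, they were Cdh5 (-0.03), Kdr (-0.09), Flt1 (-0.07) and Emcn (-0.06). With the muscle score as covariate, they were Kdr (-0.56), Flt1 (-0.26), Tie1 (-0.15) and Emcn (-0.17). Some exceeded in size the estimate they reversed, which was 0.04 for Kdr and 0.11 for Flt1. Leaving out 1 library at a time moved Cdh5 from -0.11 to 0.14, Kdr from -0.12 to 0.14, Flt1 from -0.09 to 0.28, Tie1 from -0.04 to 0.11, Vwf from -0.20 to 0.27, Emcn from -0.16 to 0.20, Vegfa from -0.34 to 0.01, Vegfb from -0.11 to 0.28 and Fam195a from -0.29 to 0.03. Pecam1 and Tek stayed above 0 in every alternative.

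The count of all called genes was 78. It was 311 with the title prefix as covariate, 132 over the RF libraries only, 0 with the muscle score, 755 by DESeq2, 194 by limma-voom, 500 at an adjusted p of 0.1, and 0 (without heterozygous 2, knockout 1 or knockout 2) to 400 (without heterozygous 1) with 1 library left out, 8 without heterozygous 3. The cause was not tested. The count for the pathway lists was 0, and 1 with the prefix as covariate and over the RF libraries. No paired analysis was possible because the labels give the groups no shared replicate numbers.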

Other observations

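More genes were called between the title prefixes than between the genotypes, among all tested genes and in the vessel lists. With both terms in the fit, 1243 of 13300 genes (9.35%) were called between the prefixes and 311 between the genotypes. The genotype share of 0.586% given above is from the fit without the prefix. With genotype in the fit, a step added after the data were seen, 16 of the 94 pathway genes were called between the RE and RF libraries by edgeR (17.0%, against 9.35% of all tested genes), 10 higher and 6 lower in RE. HIF pathway and PGC-1 genes gave 2 higher and 2 lower of 12. Hypoxia-responsive genes gave 2 higher and 1 lower of 12, and other secreted regulators 3 higher of 14. Endothelial surface genes gave 1 higher and 2 lower of 21, and transcription factors 1 higher of 14. Notch and arterial or venous genes gave 1 higher of 12, and other VEGF and angiopoietin genes 1 lower of 9. Markers of other cells differed as well: 4 of 8 fibroblast markers were called higher in RE (median log2 difference 0.56), as were Csf1r of 12 leukocyte markers (median 0.67) and Lyve1 of 5 lymphatic ones (median 0.75), and their part in the pathway genes' differences was not tested. Ppargc1a was at 64.2 and 87.4 CPM in the RE libraries and at 259 to 494 CPM in the RF libraries (log2 -2.21, edgeR adjusted p = 0.00272). The apelin receptor gene Aplnr was at 13.3 and 13.6 CPM against 23.4 to 36.8 CPM (log2 -1.17, edgeR adjusted p = 0.0108). Eng, the TGF-beta coreceptor endoglin, was at 77.7 and 77.8 CPM against 99.1 to 124 CPM (log2 -0.58, edgeR adjusted p = 0.0339). Cd34, of the same endothelial surface list, was higher in RE (0.56, edgeR adjusted p = 0.0393). Of the hypoxia-responsive genes, Ddit4, a stress-induced inhibitor of mTORC1, was higher in RE (log2 1.35, edgeR adjusted p = 0.00512). Bnip3 was also higher (0.80, edgeR adjusted p = 0.0196), while P4ha1 was lower (-1.35, edgeR adjusted p = 0.00966). Jag1 (1.19, edgeR adjusted p = 0.00966) and the shear-responsive factor Klf2 (0.86, edgeR adjusted p = 0.0314) were higher in RE. The brown adipocyte gene Ucp1 was lower in RE, at 1647 and 2963 CPM against 4390 to 5693 CPM (log2 -1.18, adjusted p = 0.0291). It was the one called gene of the 10 brown adipocyte markers, whose median was 0.16. Prdm16 (log2 -1.22, edgeR adjusted p = 0.0760), Pparg (-0.28) and Plin1 (-0.25) were also lower in RE and did not pass. Adipoq was at 0.68 (edgeR adjusted p = 0.0569), and Cidea and Fabp4 at 0.20 and 0.21 (edgeR adjusted p = 0.489 and 0.480). Cox8b, Lipe and Cox7a1 were at 0.24, 0.17 and 0.14. The meaning of the prefix is not given in the labels, and these genes were named after their values were seen.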
